A study of Mus musculus with 17 samples.

Results

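Scavenger receptors are surface proteins with which macrophages bind and take up modified lipoproteins, microbes, dead cells and other charged particles. The RNA of 6 of their genes (Marco, Msr1, Cd36, Scarb1, Scarf1 and Olr1) was followed across mouse bone marrow-derived macrophages in 17 libraries. The members were a given list of symbols, each found once among the 55401 Ensembl identifiers of the count table, and all 6 passed the filter on low counts in every comparison. C57BL/6J cells formed a control group (3 libraries, with no description of what the cells received), a group treated with B16F10 TCM, which is medium conditioned by the mouse melanoma line B16F10 (3 libraries), and groups in which that medium also held KCl (3 libraries) or NaCl (2 libraries). These treatments lasted 6 hours and the final concentration of either salt was 40 mM. In the 6 remaining libraries the KCl added to the medium is labelled isotonic. They were from the strains Kcnj2f/f (3 libraries, floxed Kcnj2 with no Cre named, called floxed here) and Lyz2-Cre-Kcnj2f/f (3 libraries, called the knockout here). Both isotonic groups thus carry the floxed allele, and the Cre is driven by Lyz2, a gene of myeloid cells. Their time of treatment and salt concentration are not stated separately.

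Marco and Msr1 (also known as SR-A) are class A receptors, trimers with a collagen-like stalk that bind polyanions, bacteria and acetylated lipoprotein. Cd36 and Scarb1 (SR-BI) are class B receptors that cross the membrane at both ends. CD36 takes up long-chain fatty acids and oxidized low-density lipoprotein and works with Toll-like receptors, while SR-BI exchanges cholesterol with high-density lipoprotein. Olr1 encodes LOX-1, a C-type lectin-like receptor for oxidized low-density lipoprotein, and Scarf1 (SREC-I) a receptor with epidermal growth factor-like repeats that binds modified lipoprotein and dying cells. Macrophages are known to raise several of these receptors when they meet microbial or inflammatory signals, and lipid uptake through them is a step in foam cell formation.

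The sequences 5' of the RNA start were in the RefSeq promoter table (GRCm38.p6) for 3 of the 6 genes, Marco, Cd36 and Olr1. They are shown because Marco and Olr1 had the largest changes of the 6 genes and Cd36 a small one, and they can be read beside the factors listed further on. Each line holds the 250 bases before the start, 5' to 3' on the minus strand. Capitals mark matches, on either strand, to 6 motifs that were searched: PU.1 (GAGGAA), AP-1 (TGANTCA), NRF2 (TGACNNNGC), NF-kB (GGG, any 2 bases, then TTTCC), the core of NFAT5 (TGGAAA) and the E-box of MITF and TFE factors (CACGTG).
Marco, chr1:120505025-120505274: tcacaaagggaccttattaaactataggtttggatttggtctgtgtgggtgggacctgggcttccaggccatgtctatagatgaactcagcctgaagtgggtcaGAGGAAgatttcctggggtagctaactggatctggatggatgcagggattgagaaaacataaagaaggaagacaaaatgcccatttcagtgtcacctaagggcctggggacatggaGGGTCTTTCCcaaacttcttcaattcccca
Cd36, chr5:17835897-17836146: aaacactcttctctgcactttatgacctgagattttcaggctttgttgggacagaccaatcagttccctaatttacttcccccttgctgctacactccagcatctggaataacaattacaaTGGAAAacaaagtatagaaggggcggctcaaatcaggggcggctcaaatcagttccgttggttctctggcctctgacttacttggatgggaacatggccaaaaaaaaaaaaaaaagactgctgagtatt
Olr1, chr6:129507166-129507415: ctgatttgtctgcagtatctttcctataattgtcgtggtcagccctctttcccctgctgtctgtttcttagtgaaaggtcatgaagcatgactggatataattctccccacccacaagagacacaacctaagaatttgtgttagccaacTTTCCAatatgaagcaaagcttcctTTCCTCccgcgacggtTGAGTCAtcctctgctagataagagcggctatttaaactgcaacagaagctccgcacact
The Marco window held a PU.1 match 146 to 141 bases and an NF-kB match 30 to 21 bases before the start. The Olr1 window held an NFAT5 core match (101 to 96 bases before), a PU.1 match (76 to 71) and an AP-1 match (60 to 54). The Cd36 window held an NFAT5 core match (129 to 124), and it lies inside the Cd36 gene of GENCODE M21, of which some transcripts start further upstream. No matches overlapped. Among 32536 windows of this length in the table, 23.4% held the PU.1 letters, 6.73% AP-1, 10.2% NRF2, 1.40% NF-kB, 18.6% the NFAT5 core and 6.04% the E-box. A match describes letters only, and binding was not measured.

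Library totals ran from 13503869 to 19391623 counts. Summed markers of macrophages reached 27500 to 31280 CPM (a gene's counts relative to its library's total, per 1000000 counts, scaled by TMM over all libraries) in each library outside the knockout and 14650 to 15650 CPM in the knockout, where Lyz2 itself was lower. All 7 melanoma markers stayed below 1 CPM in every library, with Tyr, Dct and Slc45a2 at 0, and so did all 6 adipocyte markers. Libraries also differed in how strongly their counts followed transcript length. The slope of log2(CPM + 1) on log2 length was 0.47 to 0.53 in control, conditioned medium and NaCl, and 0.36 to 0.45 with KCl. In the C57BL/6J cells slope and KCl thus cannot be fully told apart, also where the slope enters a fit as a covariate. Floxed cells had slopes of 0.32 to 0.53 and the knockout 0.34 to 0.43. The slope is given below beside Marco, Cd36 and Scarb1. In bulk RNA, fewer cells of a type and less RNA per cell cannot be told apart.

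**Figure D1:**
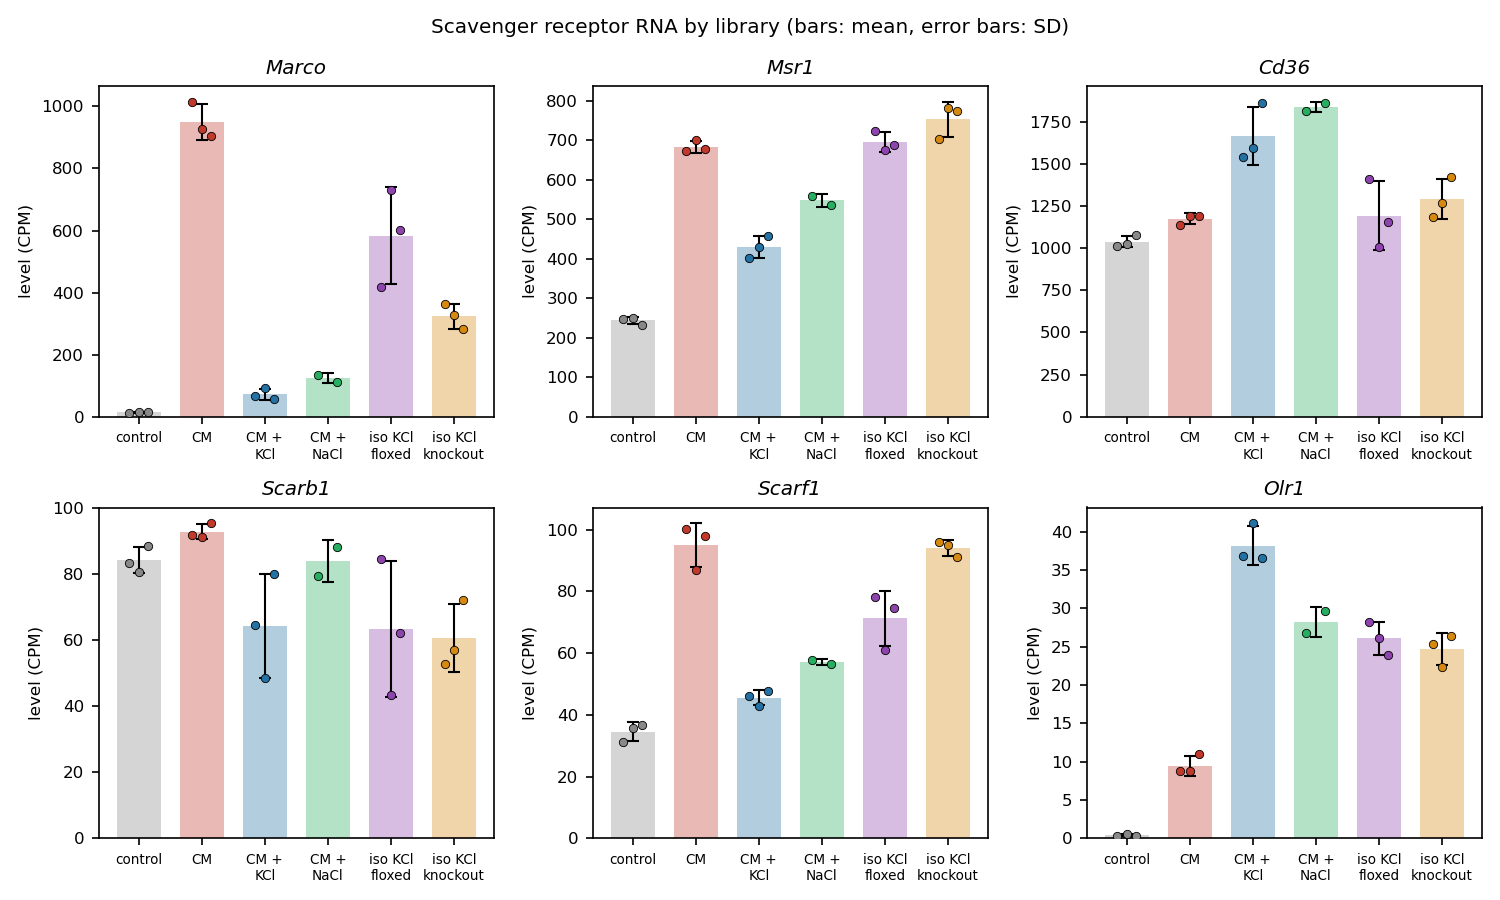
Level of each receptor in CPM (y axis, linear from 0) in each library (points) by group (x axis), with bars for the group mean and error bars for the SD (3 libraries per group, 2 with NaCl). CM stands for B16F10-conditioned medium and iso KCl for conditioned medium with isotonic KCl. Marco peaks in conditioned medium alone and Olr1 with KCl.

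To compare genes, levels were divided by the summed exon length (CPM per kb). On this scale, in the C57BL/6J cells, Cd36 led the 6 receptors in control, Marco led in conditioned medium, and Cd36 led again with either salt. Without that division Cd36 led in conditioned medium too, at a mean of 1174 CPM against 949.7 CPM for Marco. The lead of Marco there thus depends on the scaling by length. In control cells Cd36 stood first at 289 ± 9.43 CPM per kb (SD, n = 3) and held 81.0% of the summed level of the 6 genes. Msr1 followed at 38.5 ± 1.43 and Marco stood behind Scarf1 and Scarb1 at 7.42 ± 0.724 CPM per kb. In conditioned medium Marco was first at 493 ± 30.03 CPM per kb, or 50.6% of the sum, ahead of Cd36 at 327 ± 8.98. With KCl the share of Marco was 6.28% and that of Cd36 76.8%, and with NaCl they were 9.23% and 73.1%. In isotonic KCl the floxed cells lay between these states, with 38.7% for Marco and 42.3% for Cd36, and the knockout cells had 24.3% and 51.9%. Olr1 held 0.0326% in control and 0.272% in conditioned medium, and 0.930% to 1.77% in the other groups.

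**Figure D2:**
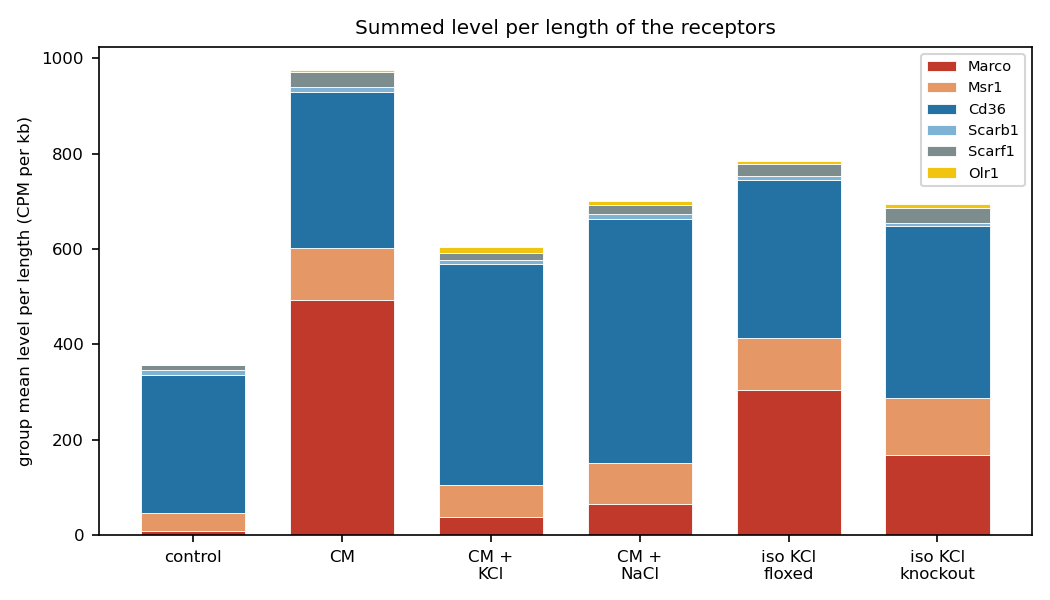
Stacked group mean level per length (CPM per kb, y axis from 0) of the 6 receptors in each group (x axis). Marco makes up 50.6% of the stack in conditioned medium and 6.28% with KCl.

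Changes were tested in edgeR by its quasi-likelihood F test. A call is a Benjamini-Hochberg adjusted p below 0.05 over all genes tested. In conditioned medium against control 4 of the 6 receptors rose (Marco, Olr1, Msr1 and Scarf1) and none fell, where 53.5% of all genes tested were called and 27.2% were called higher. Olr1 passed the filter through its level outside control. Its rise and its lack of overlap with control thus had to be seen and add nothing to the counts of this comparison. With KCl against conditioned medium alone all 6 changed, 2 upwards (Olr1 and Cd36) and 4 downwards (Marco, Scarf1, Msr1 and Scarb1), against 53.9% of all genes. With NaCl 5 changed, Olr1 and Cd36 upwards and Marco, Scarf1 and Msr1 downwards, against 28.7%. Between KCl and NaCl 4 differed, Olr1 higher and Marco, Msr1 and Scarf1 lower with KCl, against 31.6%. The comparisons of either salt share the conditioned medium libraries, so a common direction in them is not independent. The libraries of both groups did not overlap for any of the 6 receptors in conditioned medium against control (68.1% of all genes tested), KCl against conditioned medium (56.7%) and NaCl against conditioned medium (60.7%). Between KCl and NaCl this held for 4 of the 6 (51.1%). When only the KCl and NaCl groups were fitted, none of the 6 was called by edgeR (4 had an unadjusted p below 0.05), and 0.0598% of all genes were. DESeq2 called 4, but in a fit of all 11 C57BL/6J libraries and not of those groups alone. With shares this large among all genes in the first 3 comparisons, a call alone sets no receptor apart, and the sizes below carry the description.

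**Figure D3:**
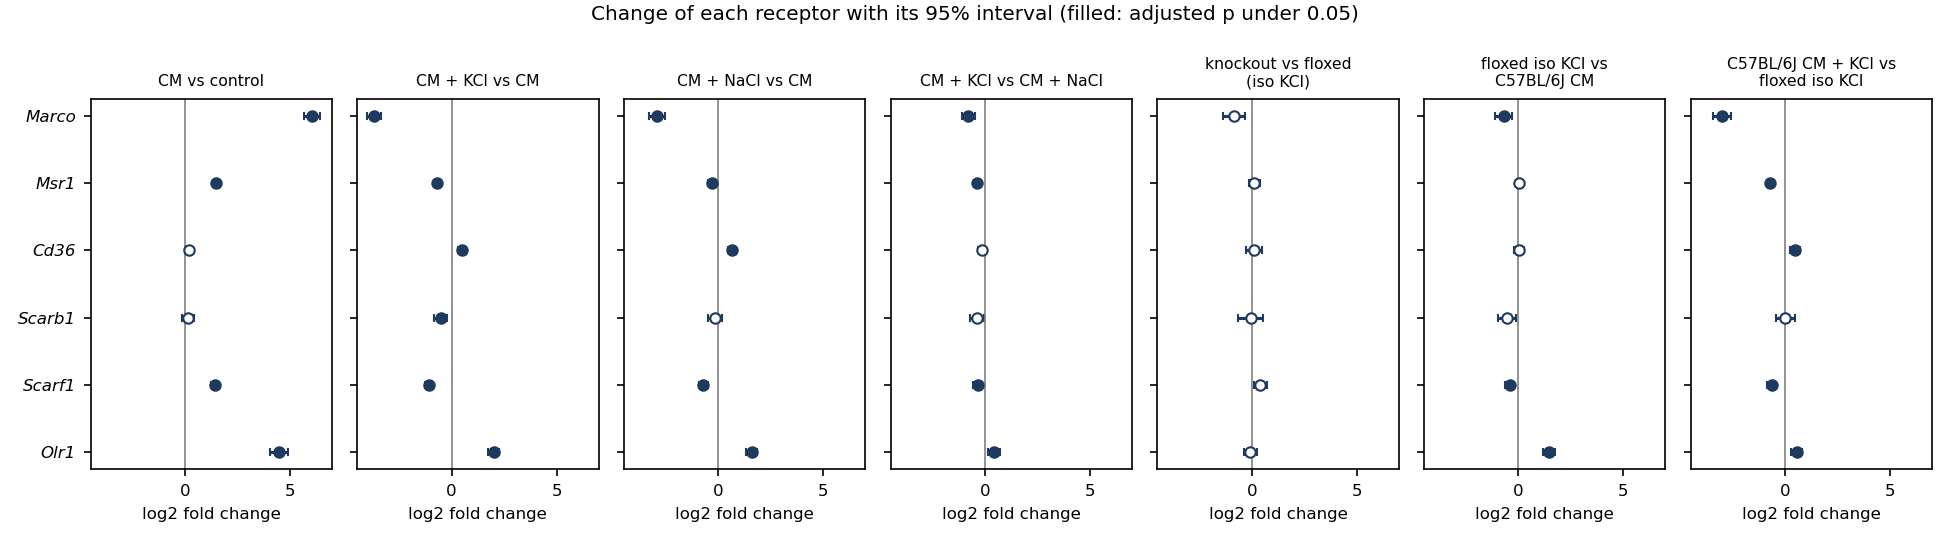
Log2 fold change (x axis) of each receptor (rows) in 7 comparisons, with its 95% interval. Filled points have an adjusted p below 0.05 by edgeR's quasi-likelihood test and open points do not. Marco moves by 6.05 in conditioned medium and by −3.72 with KCl, while no receptor is filled between knockout and floxed cells.

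Marco (ENSMUSG00000026390, chr1:120474538-120505024, minus strand, GENCODE M21 on GRCm38, 1925 exonic bases) had the widest range. In the 3 control libraries its level was 13.1, 15.8 and 14.0 CPM. In conditioned medium it was 1015, 928 and 906 CPM, far above every control library. With KCl it was 68.4, 92.3 and 58.2 CPM, and with NaCl 136 and 113 CPM. Both salt groups thus lay below conditioned medium and above control without overlap, and every KCl library lay below both NaCl libraries. The rise in conditioned medium was 66.1-fold (log2 fold change 6.05, SE 0.17, adjusted p = 6.36e-12), rank 54 from the top of 14519 genes tested. The fall with KCl was 13.2-fold (−3.72, SE 0.15, adjusted p = 1.68e-09), rank 42 from the bottom. The fall with NaCl was 7.60-fold (−2.93, SE 0.17, adjusted p = 1.48e-07), rank 72 from the bottom. Even so, the mean with KCl was 5.10 times and that with NaCl 8.71 times the control mean. The level with KCl was lower than with NaCl by 0.79 on the log2 scale (SE 0.15, adjusted p = 0.00350). Fitted on these 2 groups alone, that last difference kept its size and had an adjusted p of 0.0682. Within the conditioned medium, KCl and NaCl groups alike, Marco was higher where the length slope was lower. With KCl, levels of 92.3, 68.4 and 58.2 CPM came with slopes of 0.36, 0.39 and 0.45.

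Msr1 (ENSMUSG00000025044, chr8:39581685-39642673, minus strand, 6344 exonic bases), the other class A receptor, followed the same order over a narrower range. It measured 248, 251 and 234 CPM in control and 672, 701 and 678 CPM in conditioned medium. With KCl it measured 403, 429 and 458 CPM and with NaCl 560 and 537 CPM. These 4 groups did not overlap. Msr1 rose 2.79-fold in conditioned medium (log2 fold change 1.48, SE 0.07, adjusted p = 8.23e-10). It fell with KCl by 0.68 on the log2 scale (SE 0.07, adjusted p = 3.91e-06) and with NaCl by 0.31 (SE 0.08, adjusted p = 0.00912). The NaCl call rested on both of its libraries, since adjusted p was 0.0548 without NaCl replicate 1 and 0.103 without replicate 2. KCl lay below NaCl by −0.37 (SE 0.08, adjusted p = 0.00497), and adjusted p was 0.104 when only those groups were fitted and 0.212 with the length slope as a covariate.

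Cd36 (ENSMUSG00000002944, chr5:17781690-17888801, minus strand, 3590 exonic bases) was abundant throughout and rose with either salt. It measured 1014, 1026 and 1077 CPM in control and 1137, 1192 and 1193 CPM in conditioned medium. With KCl it measured 1539, 1593 and 1860.0 CPM, and with NaCl 1815 and 1859 CPM. The conditioned medium libraries lay just above the control libraries, and all 5 salt libraries lay above both. The difference between conditioned medium and control was 0.17 on the log2 scale (SE 0.08, 95% interval 0.00 to 0.34, adjusted p = 0.0858). It passed the threshold with the replicate block, with the length slope as a covariate or when only those groups were fitted (adjusted p 0.0400, 0.00184 and 0.00155), and turned to −0.17 with total-count scaling. Cd36 rose with KCl by 0.49 (SE 0.08, adjusted p = 1.54e-04), or 1.41-fold, and with NaCl by 0.65 (SE 0.09, adjusted p = 9.90e-05), or 1.57-fold. KCl and NaCl overlapped (−0.16, SE 0.09, adjusted p = 0.176). Without KCl replicate 3, the highest of its group, that difference was −0.25 (adjusted p = 0.00382), with the replicate block it was −0.20 (adjusted p = 0.0451) and with total-count scaling −0.30 (adjusted p = 0.0409).

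Scarb1 (ENSMUSG00000037936, chr5:125277087-125341094, minus strand, 8500 exonic bases, the longest of the 6) varied least between groups and most with the length slope of its library. It measured 83.3, 80.8 and 88.5 CPM in control and 91.7, 91.4 and 95.4 CPM in conditioned medium. With KCl it measured 64.5, 48.5 and 80.0 CPM and with NaCl 79.4 and 88.4 CPM. The KCl libraries were spread widely and lay below conditioned medium. Scarb1 did not pass the threshold in conditioned medium against control (0.13, SE 0.13, 95% interval −0.16 to 0.42, adjusted p = 0.430). It did pass when only those groups were fitted (0.13, adjusted p = 0.0383) or with the length slope as a covariate (0.19, adjusted p = 0.0298), and was −0.20 with total-count scaling (adjusted p = 0.281). The fall with KCl was −0.53 (SE 0.14, adjusted p = 0.00496), and with the length slope as a covariate it was −0.03 (adjusted p = 0.878). Since all KCl libraries had lower slopes than the other C57BL/6J libraries, the covariate can also take up a change due to KCl. With NaCl the difference was −0.14 (SE 0.15, adjusted p = 0.546), and −0.28 with the covariate (adjusted p = 0.0125). The KCl library with the lowest slope (0.36) had the lowest Scarb1 level, 48.5 CPM, and the one with the highest slope (0.45) the highest, 80.0 CPM. The same order held in floxed cells, where 43.3, 62.3 and 84.4 CPM came with slopes of 0.32, 0.38 and 0.53. KCl lay below NaCl by −0.39 (SE 0.15, adjusted p = 0.0624). This reached −0.58 without KCl replicate 3 (adjusted p = 1.60e-04), −0.49 with the replicate block (adjusted p = 0.0124), −0.53 with total-count scaling (adjusted p = 0.0357), −0.41 with no filter (adjusted p = 0.00485) and 0.25 with the covariate (adjusted p = 0.482). The gene contains the unconfirmed gene Gm42633 on the same strand, with no exonic bases in common.

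**Figure D4:**
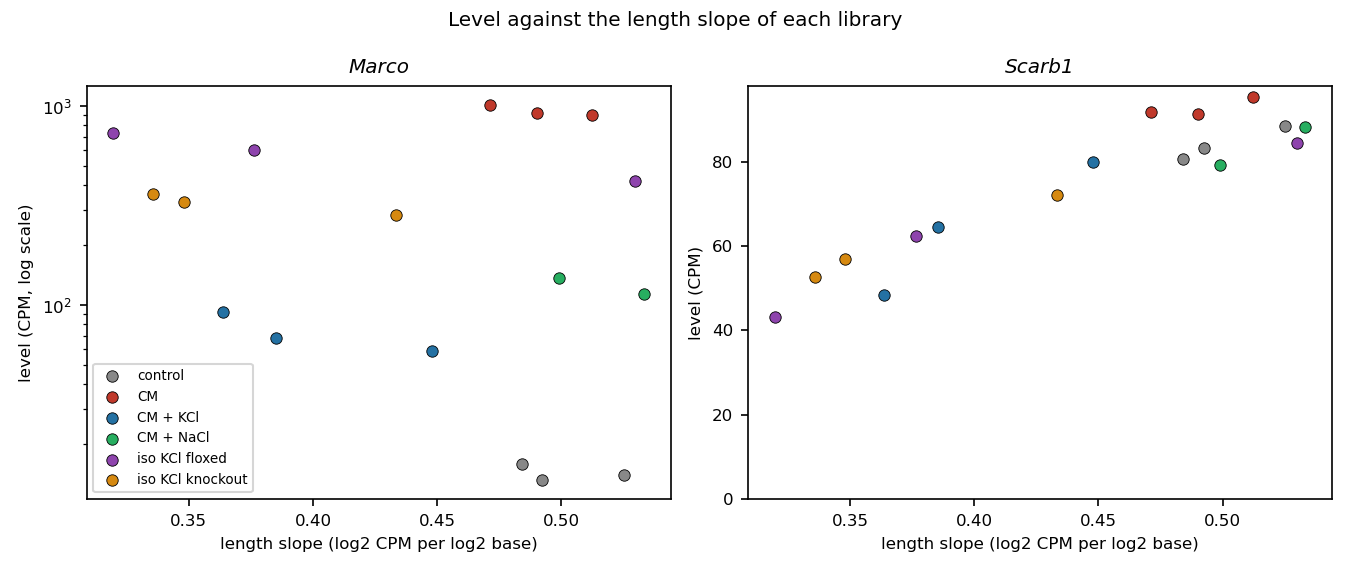
Level of Marco (left, log scale) and Scarb1 (right, linear from 0) in CPM against the length slope of each library (x axis, log2 CPM per log2 base), with 1 point per library coloured by group. Scarb1 is lowest, at 43.3 CPM, in the floxed library with a slope of 0.32. Within every group except control, Marco is higher where the slope is lower.

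Olr1 (ENSMUSG00000030162, chr6:129485244-129507165, minus strand, 3572 exonic bases) was close to absent in control cells and highest with salt. In control it measured 0.367, 0.551 and 0.329 CPM, from 8, 13 and 8 counts. In conditioned medium it measured 8.72, 8.73 and 10.9 CPM, from 138 to 188 counts. With KCl it measured 36.8, 41.1 and 36.6 CPM and with NaCl 26.8 and 29.6 CPM. The 4 groups did not overlap, and their order differed from that of Marco in that both salts lay above conditioned medium. The gene passed the filter through its level outside control, so the rise from control had to be seen if it was tested. That rise was 22.3-fold (log2 fold change 4.48, SE 0.19, adjusted p = 2.48e-10). Olr1 rose further with KCl, 3.995-fold (log2 fold change 2.0, SE 0.12, adjusted p = 3.86e-08), and with NaCl, 2.99-fold (1.58, SE 0.13, adjusted p = 2.35e-06). KCl lay above NaCl by 0.42 (SE 0.13, adjusted p = 0.0249). This call was lost without NaCl replicate 1 (adjusted p = 0.188) or replicate 2 (0.0900), with total-count scaling (0.120), in the fit of all 17 libraries (0.0569), in the fit of those groups alone (0.0911) and with the length slope as a covariate (0.386).

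Scarf1 (ENSMUSG00000038188, chr11:75513540-75526582, plus strand, 2887 exonic bases) moved like Msr1. It measured 31.2, 35.8 and 36.8 CPM in control and 100.1, 86.9 and 98.0 CPM in conditioned medium. With KCl it measured 46.3, 43.0 and 47.6 CPM and with NaCl 57.8 and 56.5 CPM. Both salt groups lay between control and conditioned medium, and these 4 groups did not overlap. It rose 2.73-fold in conditioned medium (log2 fold change 1.45, SE 0.09, adjusted p = 1.17e-08). It fell with KCl by 1.07 on the log2 scale (SE 0.09, adjusted p = 6.30e-07) and with NaCl by 0.73 (SE 0.10, adjusted p = 1.38e-04). The difference of −0.34 between KCl and NaCl (SE 0.10, adjusted p = 0.0213) was not called without NaCl replicate 1 (0.104) or replicate 2 (0.108), in the fit of those groups alone (0.120), in that of all 17 libraries (0.0690) or with the length slope as a covariate (0.606). With that covariate Marco was the single receptor still called between the salts, where 1.54% of all genes were.

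The summed markers of neutrophils were highest in conditioned medium and the isotonic groups, as Marco, Msr1 and Scarf1 were, but lay below control with KCl. The 10 markers summed to 54.6 to 56.6 CPM in control and 161 to 175 CPM in conditioned medium. With KCl the sum was 38.7 to 46.9 CPM and with NaCl 58.5 to 59.0 CPM. The floxed libraries had 114 to 169 CPM and the knockout libraries 118 to 152 CPM. Of the 10, 6 stayed below 1 CPM in every library, among them the defining genes Ly6g, Mpo and Elane, and Retnlg was at 0. Csf3r made up most of the sum in control (mean 47.8 CPM) and in conditioned medium (147 CPM). With KCl its mean of 19.4 CPM was not most of the sum. The other 3 markers above 1 CPM did not follow it with KCl, where the means of S100a8 (18.2 CPM), S100a9 (2.34 CPM) and Camp (1.56 CPM) were above those of control (4.95, 1.36 and 0.487 CPM). Markers of dendritic cells were 3.29 to 5.72 CPM in sum in control and conditioned medium, 17.8 to 25.3 CPM where KCl and 8.35 to 9.80 CPM where NaCl was added, with 5 of 8 below 1 CPM everywhere. Xcr1 carried this difference, with means of 1.38 CPM in conditioned medium and 17.3 CPM with KCl, while Zbtb46 went from 1.70 to 1.28 CPM and Ccr7 from 1.108 to 1.298 CPM. Endothelial markers, whose cells are known to express Scarf1 and Olr1, were 14.3 to 38.7 CPM in sum over all libraries and highest in control, with 5 of 8 below 1 CPM. Markers of platelets and megakaryocytes, which can carry Cd36, summed to 120 to 141 CPM in control and 234 to 260 CPM in conditioned medium. KCl libraries had 190 to 312 CPM, NaCl libraries 181 to 198 CPM, floxed libraries 207 to 435 CPM and knockout libraries 223 to 305 CPM. The increase in conditioned medium was in Pf4 alone, from a mean of 97.3 to 228 CPM, and the means of the other 7 were lower than in control, among them Ppbp (15.9 to 12.2 CPM) and Itga2b (9.48 to 6.71 CPM). Stromal markers summed to 618 to 751 CPM in control and 534 to 588 CPM in conditioned medium. KCl libraries had 332 to 509 CPM and NaCl libraries 528 to 587 CPM. With KCl the mean of Col1a1 was 84.7 CPM against 162 CPM in conditioned medium, while that of Dcn was 78.6 against 62.6 CPM. The part of these cells in the receptor values was not tested.

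The knockout libraries were first checked on the targeted gene. Kcnj2, an inward rectifier potassium channel, was 153 ± 17.6 CPM in floxed and 24.5 ± 4.86 CPM in knockout cells (SD, n = 3 each), a difference of −2.64 (SE 0.19, adjusted p = 0.0150). Its adjusted p in edgeR ran from 1.10e-14 to 0.389 when 1 library was left out or the fit was changed, and DESeq2 gave 2.60e-32. Its direction held in each case. No receptor passed the threshold between knockout and floxed cells, where 2 of 12782 genes (0.0156%) did and 716 had an unadjusted p below 0.05. By edgeR 2 receptors, Marco and Scarf1, had an unadjusted p below 0.05, and DESeq2 called none. Marco measured 419, 731 and 602 CPM in floxed and 362, 328 and 282 CPM in knockout cells. The groups did not overlap, which 11.2% of all genes tested shared. The difference was −0.84 (SE 0.22, 95% interval −1.36 to −0.33, unadjusted p = 0.00629, adjusted p = 0.378). Scarf1 measured 78.1, 61.1 and 74.5 CPM in floxed and 96.1, 95.1 and 91.2 CPM in knockout cells, again without overlap. Its difference was 0.41 (SE 0.13, 95% interval 0.11 to 0.71, adjusted p = 0.549). The 8 stromal markers moved with the genotype too, at a sum of 272.9 to 538.5 CPM in floxed and 193.2 to 262.7 CPM in knockout cells without overlap, and each of the 8 had the lower mean in knockout cells. Their part in the differences of Marco and Scarf1 was not tested.

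The remaining receptors overlapped between the isotonic groups. Msr1 measured 725, 677 and 688 CPM in floxed and 703, 783 and 776 CPM in knockout cells, a difference of 0.12 with a 95% interval of −0.15 to 0.39. Cd36 measured 1413, 1009 and 1158 CPM against 1187, 1265 and 1421 CPM, a difference of 0.12 (−0.26 to 0.50). Scarb1 measured 84.4, 43.3 and 62.3 CPM against 52.8, 57.04 and 72.3 CPM, a difference of −0.05 (−0.66 to 0.55). Olr1 measured 28.2, 26.1 and 23.9 CPM against 25.4, 22.4 and 26.4 CPM, a difference of −0.07 (−0.38 to 0.24). Adjusted p was 1.00 for each of these 4, rounded.

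The length slope varied within both isotonic groups and Marco ran against it, as it did within the conditioned medium, KCl and NaCl groups. In floxed cells Marco levels of 419, 602 and 731 CPM came with slopes of 0.53, 0.38 and 0.32. In knockout cells levels of 282, 328 and 362 CPM came with slopes of 0.43, 0.35 and 0.34. Cd36 ran with the slope, from 1009 over 1158 to 1413 CPM in floxed cells. In knockout cells it went from 1187 over 1265 to 1421 CPM as the slope rose. With the slope as a covariate, 3 receptors passed the threshold between knockout and floxed cells, where 8.51% of all genes did. Marco was then lower by 0.95 (SE 0.05, adjusted p = 1.09e-11), Scarf1 higher by 0.44 (SE 0.07, adjusted p = 3.21e-04) and Cd36 higher by 0.21 (SE 0.05, adjusted p = 0.00822). The slope was computed from the same libraries, and this fit leaves 3 residual degrees of freedom. In the fit of all 17 libraries without the slope, the Marco difference of −0.85 had an adjusted p of 0.0254.

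Isotonic KCl in floxed cells and conditioned medium alone in C57BL/6J cells differ in genotype as well as in medium, which cannot be told apart. Of the 6 receptors 3 differed, against 15.3% of all genes. Olr1 was 26.1 ± 2.15 CPM in the floxed cells and 9.46 ± 1.28 CPM in conditioned medium, a rise of 1.46 (SE 0.13, adjusted p = 3.47e-06). Marco was lower by −0.70 (SE 0.18, adjusted p = 0.0200) and Scarf1 by −0.42 (SE 0.10, adjusted p = 0.0122). These 2 calls were lost under some alternatives. Marco had an adjusted p of 0.0696, 0.0524 or 0.0609 without conditioned medium replicate 1, replicate 2 or floxed replicate 3. Scarf1 had 0.0544, 0.0527 or 0.0595 without conditioned medium replicate 1, replicate 3 or floxed replicate 2. When only those groups were fitted, the values were 0.122 and 0.130. Msr1 (0.03, 95% interval −0.13 to 0.19) and Cd36 (0.02, −0.22 to 0.26) overlapped. With the length slope as a covariate Cd36 was higher by 0.20 (adjusted p = 0.00525). Scarb1 was lower by −0.55 (adjusted p = 0.0753) and passed the threshold without floxed replicate 1 (−0.81, adjusted p = 0.00376) and by DESeq2 (−0.54, adjusted p = 0.0491).

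Hypertonic KCl in C57BL/6J cells against isotonic KCl in floxed cells has the same limit. There 5 of 6 receptors differed, against 27.8% of all genes. Marco was 73 ± 17.5 CPM against 584 ± 157 CPM, a difference of −3.0 (SE 0.20, adjusted p = 6.76e-08). Msr1 was lower by −0.70 (SE 0.08, adjusted p = 6.93e-06) and Scarf1 by −0.64 (SE 0.10, adjusted p = 2.18e-04). Olr1 was higher by 0.55 (SE 0.12, adjusted p = 0.00341) and Cd36 by 0.48 (SE 0.11, adjusted p = 0.00480). The Cd36 call was lost with total-count scaling (adjusted p = 0.0522) and when only those groups were fitted (0.130). Scarb1 overlapped (0.02, SE 0.20, adjusted p = 0.952).

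Over all groups, Marco levels ranked conditioned medium, floxed, knockout, NaCl, KCl, control, and no neighbours in that order overlapped. Scarf1 had the order conditioned medium, knockout, floxed, NaCl, KCl, control, of which the first pair overlapped. Msr1 was highest in the isotonic groups and conditioned medium, which overlapped in turn, followed by NaCl, KCl and control without overlap. Olr1 ranked KCl first, then NaCl, floxed and knockout, which overlapped, then conditioned medium and control. Cd36 was highest with NaCl and KCl, which overlapped, and lowest in control. For Scarb1 only conditioned medium stood clear of its neighbour.

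Across the 17 libraries Pearson's r of log2(CPM + 1) was 0.93 between Marco and Msr1, 0.91 between Marco and Scarf1 and 0.92 between Msr1 and Scarf1. It was 0.67 between Cd36 and Olr1, 0.55 between Marco and Olr1 and −0.05 between Marco and Cd36. These values describe libraries in 6 groups, which share depth and length slope, and carry no test. Among 8707 genes with a group mean of at least 10 CPM, those most like Marco were Marcksl1 (r = 0.985), the phosphatase gene Ptpn6 (0.984), Samsn1 (0.982) and Bst1 (0.981). Most like Msr1 were Agtrap (0.992), Mfsd7a, Il12a and St7, and most like Scarf1 the syndecan gene Sdc1 (0.964), Rac2, Cyb5r3 and Gpd2. Cd36 was closest to E2f6 (0.979), Atp2b1, Tgoln1 and Sh3gl1. Scarb1 was closest to Plec (0.980), which encodes the very long plectin, then Gnai2, Cic and Ehmt2. Olr1 was closest to Ppp4r2 (0.996), Kpna3, D17Wsu92e and C9orf72.

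Of 20 other scavenger receptor genes 18 were tested in the C57BL/6J libraries. In conditioned medium 3 rose and 9 fell, where 27.2% of all genes rose and 26.4% fell. The median log2 fold change was −0.53, and that of all genes −0.04. Those that rose were Cxcl16, which encodes a chemokine that is also a receptor for oxidized lipoprotein (0.82, SE 0.07, adjusted p = 2.02e-07), the beta-glucan receptor Clec7a (0.67, SE 0.07, adjusted p = 3.65e-06) and Cd5l. Cd5l (0.44) was 0.10 with total-count scaling (adjusted p = 0.326). Among those that fell were Stab1, a clearance receptor of macrophages (−1.27, SE 0.10, adjusted p = 1.11e-07), and Scarb2, the lysosomal relative of Cd36 (−1.16, SE 0.06, adjusted p = 3.28e-09). With KCl 3 rose and 3 fell (median 0.08, all genes −0.01), where 26.6% of all genes rose and 27.4% fell. Colec12 (1.14, SE 0.14, adjusted p = 1.47e-05), the mannose receptor Mrc1 (0.83, SE 0.10, adjusted p = 1.96e-05) and Clec7a (0.67, SE 0.07, adjusted p = 5.21e-06) rose, and Ssc4d fell (−1.75, SE 0.37, adjusted p = 0.00137). The falls of Ssc4d, Stab1 and Scara3 were not called with the length slope as a covariate, and total-count scaling gave 3 up and 7 down.

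With NaCl 3 rose and 2 fell (median −0.02, all genes −0.01), where 13.7% of all genes rose and 14.9% fell. Clec7a rose by 0.63 (SE 0.08, adjusted p = 6.79e-05), Colec12 by 0.63 (SE 0.15, adjusted p = 0.00654) and Mrc1 by 0.50 (SE 0.11, adjusted p = 0.00473), and Cxcl16 fell by 0.35 (SE 0.07, adjusted p = 0.00349). The calls of Mrc1 and Cxcl16 were lost without NaCl replicate 2, at 0.37 and −0.3. Between the salts 3 were higher with KCl and none lower (median 0.06, all genes −0.04), where 15.4% of all genes were higher and 16.2% lower. With the length slope as a covariate edgeR called none either way (2 at an unadjusted p below 0.05, and 4 higher by DESeq2 without the covariate), and with total-count scaling it called none higher and 1 lower. None of the 14 tested in the isotonic groups was called by edgeR or DESeq2, and 1 had an unadjusted p below 0.05. With the length slope as a covariate edgeR called 4 higher and 2 lower in knockout cells, against 8.51% of all genes. Clec7a thus rose in each of the first 3 comparisons, while Mrc1 and Colec12 fell in conditioned medium (−0.50 and −0.95) and rose with either salt.

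**Figure D5:**
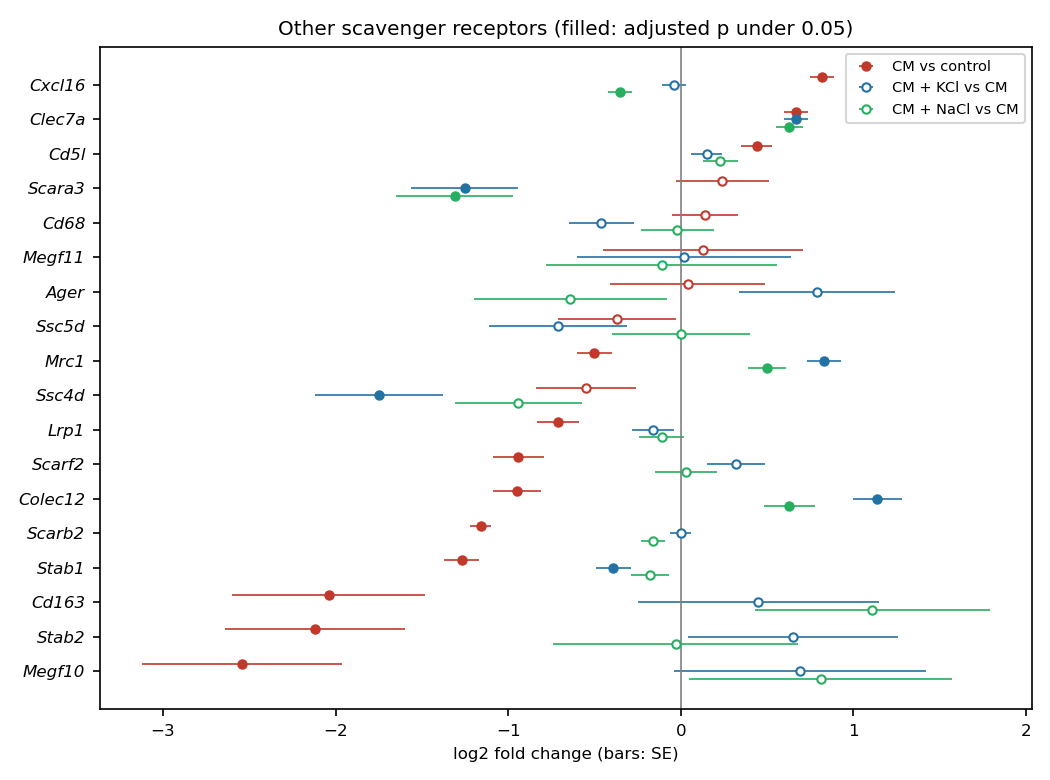
Log2 fold change with SE (x axis) of the 18 other scavenger receptor genes tested (y axis) in conditioned medium against control and with KCl or NaCl against conditioned medium. Filled points have an adjusted p below 0.05 by edgeR, and of the red points (conditioned medium) 3 are filled to the right and 9 to the left of 0.

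Genes of lipoprotein uptake and lipid storage, the pathway fed by Cd36, Msr1 and Olr1, changed in both directions in conditioned medium. Of 22 tested 7 rose and 7 fell (median 0.06, all genes −0.04), near the shares of all genes (27.2% and 26.4%), and total-count scaling gave 6 and 12. The fatty acid activating enzyme Acsl1 (3.0, SE 0.12, adjusted p = 1.60e-10) rose. The cholesterol ester hydrolase Nceh1 (−1.82, SE 0.09, adjusted p = 7.74e-10) and the lipid droplet coat gene Plin2 (−0.70, SE 0.07, adjusted p = 9.55e-07) fell. With KCl 10 rose and 5 fell (median 0.20, all genes −0.01; 26.6% and 27.4% of all genes), and total-count scaling gave 7 and 7. Nceh1 (1.27, SE 0.09, adjusted p = 9.95e-08) and the cholesterol exporter Abcg1 (1.22, SE 0.11, adjusted p = 9.13e-07) rose, while Acsl1 fell by 0.95 (SE 0.11, adjusted p = 1.55e-05). With NaCl 6 rose and none fell (median 0.13; 13.7% and 14.9% of all genes), among them Abcg1 (1.00, SE 0.12, adjusted p = 3.42e-05), the lysosomal lipase Lipa (0.88, SE 0.16, adjusted p = 0.00150) and Nceh1 (0.70, SE 0.09, adjusted p = 1.15e-04). Between the salts 7 were higher and 4 lower with KCl (15.4% and 16.2% of all genes), and 1 and 1 with the length slope as a covariate.

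Of 31 tested regulators known to act on these receptor genes, 18 rose and 8 fell in conditioned medium (median 0.33, all genes −0.04; 27.2% and 26.4% of all genes), and total-count scaling gave 13 and 10. The MiT family member Tfec (3.17, SE 0.08, adjusted p = 1.77e-12) and the NF-kB subunit Nfkb1 (1.81, SE 0.07, adjusted p = 1.53e-10) rose. The AP-1 subunit Fos fell (−1.51, SE 0.08, adjusted p = 3.73e-09). With KCl 11 rose and 10 fell (26.6% and 27.4% of all genes; 7 and 13 with total-count scaling), and with NaCl 11 rose and 8 fell (13.7% and 14.9%). Fos was again lower, at −2.92 with KCl (SE 0.10, adjusted p = 2.80e-10) and −2.13 with NaCl (SE 0.10, adjusted p = 2.35e-08). The oxysterol receptor LXR-alpha gene Nr1h3 fell by 1.53 (SE 0.09, adjusted p = 2.27e-08) and 1.54 (SE 0.10, adjusted p = 2.90e-07), and Tfec rose by 0.89 (SE 0.07, adjusted p = 5.80e-07) and 0.82 (SE 0.08, adjusted p = 9.94e-06). Between the salts 3 were higher and 7 lower with KCl (15.4% and 16.2% of all genes), and 1 and 3 with the length slope as a covariate.

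Of 24 tested partners and signalling genes, 13 rose and 6 fell in conditioned medium (median 0.57, all genes −0.04; 27.2% and 26.4% of all genes), and total-count scaling gave 11 and 10. Toll-like receptor 2 (Tlr2, 1.73, SE 0.07, adjusted p = 9.62e-11) and the sheddase Adam17 (1.46, SE 0.07, adjusted p = 5.96e-10) rose, and the integrin gene Itga6 fell by 2.53 (SE 0.12, adjusted p = 6.13e-10). With KCl 8 rose and 13 fell (median −0.33, all genes −0.01; 26.6% and 27.4% of all genes). With the length slope as a covariate 7 rose and 6 fell (median 0.02), and with total-count scaling 5 rose and 15 fell. The Src family kinases Fgr (−4.27, SE 0.17, adjusted p = 8.61e-10) and Lyn (−1.59, SE 0.10, adjusted p = 6.29e-08), which signal below CD36, fell, while Toll-like receptor 4 (Tlr4, 0.97, SE 0.07, adjusted p = 2.17e-07) and the tetraspanin Cd9 (0.98, SE 0.07, adjusted p = 1.58e-07) rose. With NaCl 6 rose and 6 fell (13.7% and 14.9% of all genes; 6 and 10 with the length slope), with Fgr at −3.27 (SE 0.18, adjusted p = 7.09e-08) and Tlr4 at 1.29 (SE 0.08, adjusted p = 1.52e-07). Between the salts 1 was higher and 11 lower with KCl (15.4% and 16.2% of all genes), and edgeR called none once the length slope entered as a covariate (3 at an unadjusted p below 0.05; DESeq2 without it called 3 higher and 12 lower). Between knockout and floxed cells edgeR called no gene of these 3 lists. At an unadjusted p below 0.05 there were 1 lipid gene, 0 regulators and 2 partners. DESeq2 called 1 gene of the 3 lists there, the CD36 ligand thrombospondin-1 (Thbs1), lower in knockout cells by −0.67 (adjusted p = 0.0130). With the length slope as a covariate edgeR called 5 lipid genes higher and 2 lower, 2 regulators higher and 3 lower, and 4 partners higher and 2 lower, against 8.51% of all genes.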

How the data were processed

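Total RNA of 17 libraries was sequenced, and the authors deposited raw counts per Ensembl gene and library. Of the aligner, counter, genome build and strand setting, none is given in the sources used here. Per the submitters' processing notes DESeq2 1.30.1 was used, in a role not stated. Symbols, positions and exon lengths came from GENCODE M21 on GRCm38, and 55141 of 55401 identifiers had a symbol. Groups came from the treatment and strain labels. Whether replicates are separate animals, cultures or neither is not said. The p-values therefore reflect the spread between samples alone, and that spread may be technical. Every pair of replicates differed by more than sampling noise, but unequally. Chi-square per degree of freedom, which grows with that excess, ran from 2.07 to 5.72 for pairs of control, conditioned medium or NaCl libraries. KCl pairs had 29.5 to 91.3. Among floxed pairs the range was 25.8 to 135, and knockout pairs spanned 5.65 to 34.5. Fits of several groups share a common spread per gene. SE may thus be too small for KCl and too large for conditioned medium against control, which was not tested.

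The members and gene lists were chosen with earlier results of these data known. Counts were tested in edgeR 4.0.16 (R 4.3.3) with TMM factors, the default low-count filter by group and a robust quasi-likelihood fit. The 11 C57BL/6J libraries were fitted together (14519 genes), the 6 isotonic libraries alone (12782), and all 17 for comparisons across strains (14676). Named genes are the 6 members, up to 4 called genes of each list by smallest p in each comparison within a strain background, the 4 genes most like each member, and Kcnj2. Genes named outside this rule (Cd5l, Scara3, Thbs1, Stab1 with KCl, Lyz2, and Colec12 and Mrc1 in conditioned medium) were chosen after their values were seen. Totals of 13503869 to 19391623 counts allow a gene at 0 counts up to 3 counts in a library (counting error only). The procedure was tested on simulated counts, with the same spread per gene in every group and no differences in length slope. That test therefore cannot judge SE or calls under the unequal spread and slopes of these libraries. Alternatives were RLE factors, total-count scaling, no filter, a stricter filter (at least 1 CPM in 3 libraries with a mean count of 20), the groups compared alone, all 17 libraries, a replicate block, the length slope as a covariate, each library left out and DESeq2 1.42.0.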

Additional observations from a re-analysis of the deposited data

How the results depend on the processing

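Of 600 values of the receptors under the alternatives, 538 kept direction and side of the threshold, 20 gained and 27 lost a call, and 15 changed sign, none of them past the threshold in either fit. Sign changes were Cd36 −0.17 and Scarb1 −0.20 (conditioned medium against control, total-count scaling), Cd36 0.14 and Scarb1 0.25 (KCl against NaCl, length slope), Scarb1 0.13 with the length slope, 0.20 without floxed replicate 1 and 0.04 without knockout replicate 1, in a range of −0.27 to 0.20 over single libraries left out (knockout), Msr1 −0.14 and Cd36 −0.14 with total-count scaling and −0.00 and −0.12 without floxed replicate 1, in ranges of −0.00 to 0.06 and −0.12 to 0.14 (floxed against conditioned medium), and Scarb1 −0.04 with total-count scaling, −0.01 with no filter, −0.15 without KCl replicate 3 and −0.17 without floxed replicate 2, in a range of −0.17 to 0.29 (hypertonic against isotonic KCl). With the length slope 4967 genes were called with KCl, 224 (receptors: 1) between the salts, 1088 (receptors: 3) in the knockout and 6671 between hypertonic and isotonic KCl. In fits of only the groups compared the counts were 6245 with NaCl, 8 (receptors: 0) between the salts, 411 (receptors: 1) for floxed cells against conditioned medium and 1218 for hypertonic against isotonic KCl. In the fit of all 17 libraries they were 1299 (receptors: 2) between the salts and 272 (receptors: 1) in the knockout, where no filter gave 12 and DESeq2 121. Leaving out 1 library gave 2224 to 3465 genes with NaCl (lowest without NaCl replicate 2), 960 to 6989 between the salts (without NaCl replicate 2 and KCl replicate 3; receptors: 2 to 6), 0 to 14 in the knockout and 1081 to 5589 for floxed cells against conditioned medium (highest without floxed replicate 1; receptors: 1 to 4). The causes were not tested. Total-count scaling moved the median of all genes from −0.04 to −0.37 in conditioned medium, from −0.01 to −0.22 with KCl, from −0.04 to −0.18 between the salts and from −0.01 to −0.18 for floxed cells against conditioned medium. The share of called genes that were higher then went from 50.8% to 24.9%, 49.3% to 32.6%, 48.6% to 30.1% and 53.6% to 26.1%, and with NaCl from 48.0% to 37.0%. Residuals of same-number libraries correlated above 0.1 in 7 of 15 C57BL/6J pairs and 1 of 3 isotonic pairs. Those of different numbers did so in 8 of 30 and 4 of 6 pairs. Libraries correlated best with their own number in 16 of 36 comparisons with another group. The numbers were not taken as pairs, although in C57BL/6J cells the share above 0.1 was larger for same numbers. With the replicate block Cd36 was 0.17 (adjusted p = 0.0400) in conditioned medium, Cd36 −0.20 (0.0451) and Scarb1 −0.49 (0.0124) between the salts, all by edgeR, and 0 genes were called in the knockout. The block changed no other call of a receptor. With 2 or 3 libraries per group, receptors near 1 CPM such as Olr1 in control rest on few counts.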
